A study of Mus musculus with 15 samples.

Results

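The genes of cell cycle and DNA replication were followed across foam cells of chow-fed and western diet-fed mice. Members were 50 genes listed by name. All probe sets annotated to exactly 1 of these symbols were taken, and where a gene had several, the one brightest on average across the 15 arrays stood for it. On the array 49 of the 50 had such a probe set, of 18193 genes in all; Ccnb1 had none. Their mean level was high enough for testing in 39, of 11925 genes tested: 16 of 19 S-phase genes, 3 of 3 genes of G1 control and 20 of 28 listed mitosis genes.

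The study measured foam cells, which are macrophages filled with lipid in arterial plaques, cut by laser from sections of the aortic sinus. All mice were ApoE-/- on the C57BL/6 strain, so every group lacked apolipoprotein E, which clears lipoproteins from the blood. The 5 CHOW samples came from mice on regular chow up to week 22. The 5 samples of 14w-WD came from mice that ate a western-type diet from week 8 to week 22, which is 14 weeks. The 5 samples of 2w-WD came from mice that ate it for 2 weeks, after 20 weeks of chow per the sample labels but from week 22 to week 24 per the series text, which leaves their age uncertain. No label says which animal an array came from, so the p-values reflect the scatter among these samples alone, some of which may be technical. RNA from captured cells was amplified and hybridised to Affymetrix arrays of the whole mouse genome, and levels are log2(deposited intensity + 16). For arrays the number of samples limits the precision.

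A cell that divides first passes G1, in which D-type cyclins with CDK4 or CDK6 phosphorylate the retinoblastoma protein and free the E2F transcription factors. E2F factors switch on S-phase genes, among them those for the MCM helicase, the sliding clamp PCNA and the enzymes that make deoxynucleotides. Mitosis genes are switched on later, in G2, through promoter elements called CHR (cell cycle genes homology region) and CCAAT boxes, and encode cyclins A and B, mitotic kinases, kinesins and kinetochore proteins. Macrophages are known to divide within atherosclerotic lesions. Because the samples are captured tissue, fewer dividing cells and less of a transcript per dividing cell cannot be told apart.

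The promoters of 3 S-phase and 2 mitosis members whose level differed between 14w-WD and 2w-WD are shown for the letters of these elements, which not every one of them holds. They are the 250 bases before the gene's start in RefSeq (mouse build GRCm38.p6), written 5′ to 3′ on the gene's strand. Capitals mark matches on either strand to an E2F core, a CHR or a CCAAT box. The first form of the E2F core searched was TTCCCGC, the second form was TTGGCGC, the third form was TTCGCGC and the last form was TTGCCGC. The usual form of the CHR searched was TTTGAA, its palindromic form was TTCGAA, and the CCAAT box was searched by the letters of its name.

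Pcna, chr2:132253181-132253430 (minus strand): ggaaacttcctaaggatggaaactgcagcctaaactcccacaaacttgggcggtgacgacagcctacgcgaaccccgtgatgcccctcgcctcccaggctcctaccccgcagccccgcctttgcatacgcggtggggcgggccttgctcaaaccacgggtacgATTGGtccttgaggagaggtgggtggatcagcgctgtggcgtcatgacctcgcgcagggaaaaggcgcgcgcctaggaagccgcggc

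Mcm6, chr1:128359706-128359955 (minus strand): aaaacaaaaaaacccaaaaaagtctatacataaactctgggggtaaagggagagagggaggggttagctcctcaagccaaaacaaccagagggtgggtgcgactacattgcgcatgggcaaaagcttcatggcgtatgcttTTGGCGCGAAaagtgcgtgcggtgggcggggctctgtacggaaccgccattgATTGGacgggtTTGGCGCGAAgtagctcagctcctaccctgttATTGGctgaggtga

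Rrm1, chr7:102441445-102441694 (plus strand): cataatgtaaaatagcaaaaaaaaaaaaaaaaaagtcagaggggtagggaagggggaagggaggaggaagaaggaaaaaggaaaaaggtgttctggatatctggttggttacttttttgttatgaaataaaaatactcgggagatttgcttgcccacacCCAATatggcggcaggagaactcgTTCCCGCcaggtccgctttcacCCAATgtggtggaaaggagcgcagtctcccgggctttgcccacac

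Top2a, chr11:99024190-99024439 (minus strand): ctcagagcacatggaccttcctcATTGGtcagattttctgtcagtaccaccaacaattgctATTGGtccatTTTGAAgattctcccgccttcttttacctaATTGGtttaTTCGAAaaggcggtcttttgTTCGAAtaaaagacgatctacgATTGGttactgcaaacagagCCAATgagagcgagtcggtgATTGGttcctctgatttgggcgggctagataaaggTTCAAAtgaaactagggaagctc

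Aurka, chr2:172370571-172370820 (minus strand): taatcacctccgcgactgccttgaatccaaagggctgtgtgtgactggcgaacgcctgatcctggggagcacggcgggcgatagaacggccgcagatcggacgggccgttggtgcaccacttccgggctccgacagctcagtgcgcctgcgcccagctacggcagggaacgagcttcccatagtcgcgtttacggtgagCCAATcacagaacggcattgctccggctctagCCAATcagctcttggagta

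The stretch of Mcm6 held 4 E2F core matches, which overlap in pairs because TTGGCGC on one strand and TTCGCGC on the other share bases, and 2 CCAAT boxes. The stretch of Rrm1 held 1 E2F core and 2 CCAAT boxes, and that of Pcna 1 CCAAT box and no match to these E2F core letters. The stretch of Top2a held 4 CHR and 6 CCAAT boxes, the most of the 5, and that of Aurka 2 CCAAT boxes and no match to these CHR letters. In a window of 250 bases before to 50 after the start, 11 of 18 promoters of S-phase members (61.1%) held an E2F core, against 4 of 24 promoters of mitosis members (16.7%) and 9.57% of all 32851 promoters. A CHR stood in 20 of 24 mitosis promoters (83.3%), 3 of 18 S-phase promoters (16.7%) and 19.2% of all. CCAAT boxes stood in 72.2% of S-phase, 87.5% of mitosis and 37.4% of all promoters. Promoters were matched for 16 S-phase and 23 mitosis members and for Cdk4. Of the 8 matched members higher in 14w-WD than in 2w-WD, 3 held an E2F core, 2 a CHR and 6 a CCAAT box. A match describes the letters of this window and is not a measured binding site.

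**Figure D1:**
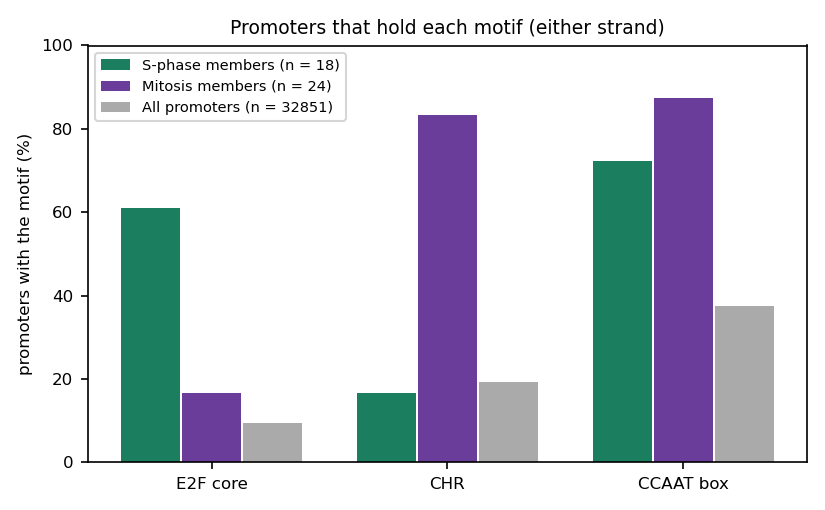
Percent of promoters (y axis) that hold each motif on either strand (x axis: E2F core, CHR, CCAAT box), for 18 S-phase promoters, 24 mitosis promoters and all 32851 promoters of the same length. The E2F core stood in 61.1% of S-phase and the CHR in 83.3% of mitosis promoters, against 9.57% and 19.2% of all.

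Of 16 macrophage marker genes 15, all but Itgam, lay above the filter level of log2 5.66 (an intensity of 34.6, the median of all probe sets). So did 11925 of 18193 genes on the array, 15 of 15 heart muscle markers and 10 of 10 fibroblast markers. This count therefore cannot tell macrophages from other tissue. Csf1r, the receptor for macrophage colony-stimulating factor, had means of 14.13 ± 0.24 (SD, n = 5) for CHOW, 14.12 ± 0.09 for 2w-WD and 14.08 ± 0.13 for 14w-WD. The 15 macrophage markers together were less even than Csf1r. Their mean was 11.72 ± 0.32 (SD, n = 5) for CHOW, 11.31 ± 0.24 for 2w-WD and 11.87 ± 0.27 for 14w-WD. Heart muscle markers were present too, with a summed intensity of 2906 to 81199 in CHOW, 56299 to 118296 in 2w-WD and 27252 to 92162 in 14w-WD. The arrays differed in brightness: of all probe sets, 21.7% ± 1.84 (SD, n = 5) lay above an intensity of 100 for CHOW, 20.9% ± 2.86 for 2w-WD and 24.8% ± 1.79 for 14w-WD.

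The comparison of 14w-WD with 2w-WD sets long against short feeding. These groups also differ in the age at which the diet began and perhaps in age at sampling. Neither can be told apart from feeding length. More S-phase than mitosis genes were called in this comparison. Of 16 tested S-phase members 6 rose (37.5%): Pcna, Mcm6, Rrm1, Ccne1, Gins2 and Mcm3. Of the 3 G1 members Cdk4 rose, and of 20 mitosis members Top2a and Aurka rose (10%). That made 9 of 39 members higher and 0 lower by limma at an adjusted p under 0.05 (23.1%), where 11.2% of all genes tested passed, 10.1% higher and 1.15% lower. At an unadjusted p under 0.05, 13 members were higher and 3 lower, where 32.1% of all genes passed, 25.9% higher and 6.13% lower. The change lay above 0 for 27 of 39 members and 65.2% of all genes. The median log2 change was 0.71 for S-phase members, 0.60 for G1 members and 0.22 for mitosis members, against 0.23 for all genes tested. Relative to that median gene the S-phase median was 0.48 and the mitosis median -0.0065. The medians moved with the processing. With the brightness of each array as a covariate the median change was 0.27 for S-phase and 0.28 for mitosis members, against 0.038 for all genes. Relative to that median gene these were 0.23 and 0.24. Under quantile normalization the median change was 0.34 and 0.045, against 0.0071 for all genes, or 0.33 and 0.038 relative to it. Without 2w-WD replicate 5 the median change of mitosis members, not relative to all genes, was 0.41. Whether S-phase and mitosis genes differ from each other was not tested.

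The count of members called changed when single arrays were left out and when brightness was fitted, as did that of all genes. It was 1 (Pcna, 2.56% of members) without 2w-WD replicate 2, where 2.18% of all genes passed, or without 14w-WD replicate 3 (1.88% of all genes). It was 2 (Pcna and Top2a, 5.13%) without 2w-WD replicate 4 (2.18% of all genes) or 14w-WD replicate 1 (1.38%), and 5 (12.8%) without 14w-WD replicate 5 (4.76%). Without 2w-WD replicate 2, Mcm6 had 2.11 (adjusted p = 0.057), Rrm1 1.44 (adjusted p = 0.075) and Mcm3 0.48 (adjusted p = 0.097). With brightness (the percent of an array's probe sets past an intensity of 100) as a covariate, limma called 0 members and 0 genes, and Mcm6 had 1.16, Ccne1 1.20, Mcm3 0.75 and Cdk4 0.56. At an unadjusted p under 0.05 that fit gave 5 members higher (Pcna, Mcm3, Ccne1, Top2a and Aurka) and 0 lower, beside 563 genes higher and 371 lower in all. Quantile normalization, which moved the median change of all genes from 0.23 to 0.0071, split the called genes into 640 higher and 288 lower, instead of 1201 and 137, and left 5 of 39 members called (12.8%, against 7.78% of all genes): Pcna, Mcm6, Cdk4, Top2a and Aurka. The part of brightness in these differences was not tested beyond these fits.

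**Figure D2:**
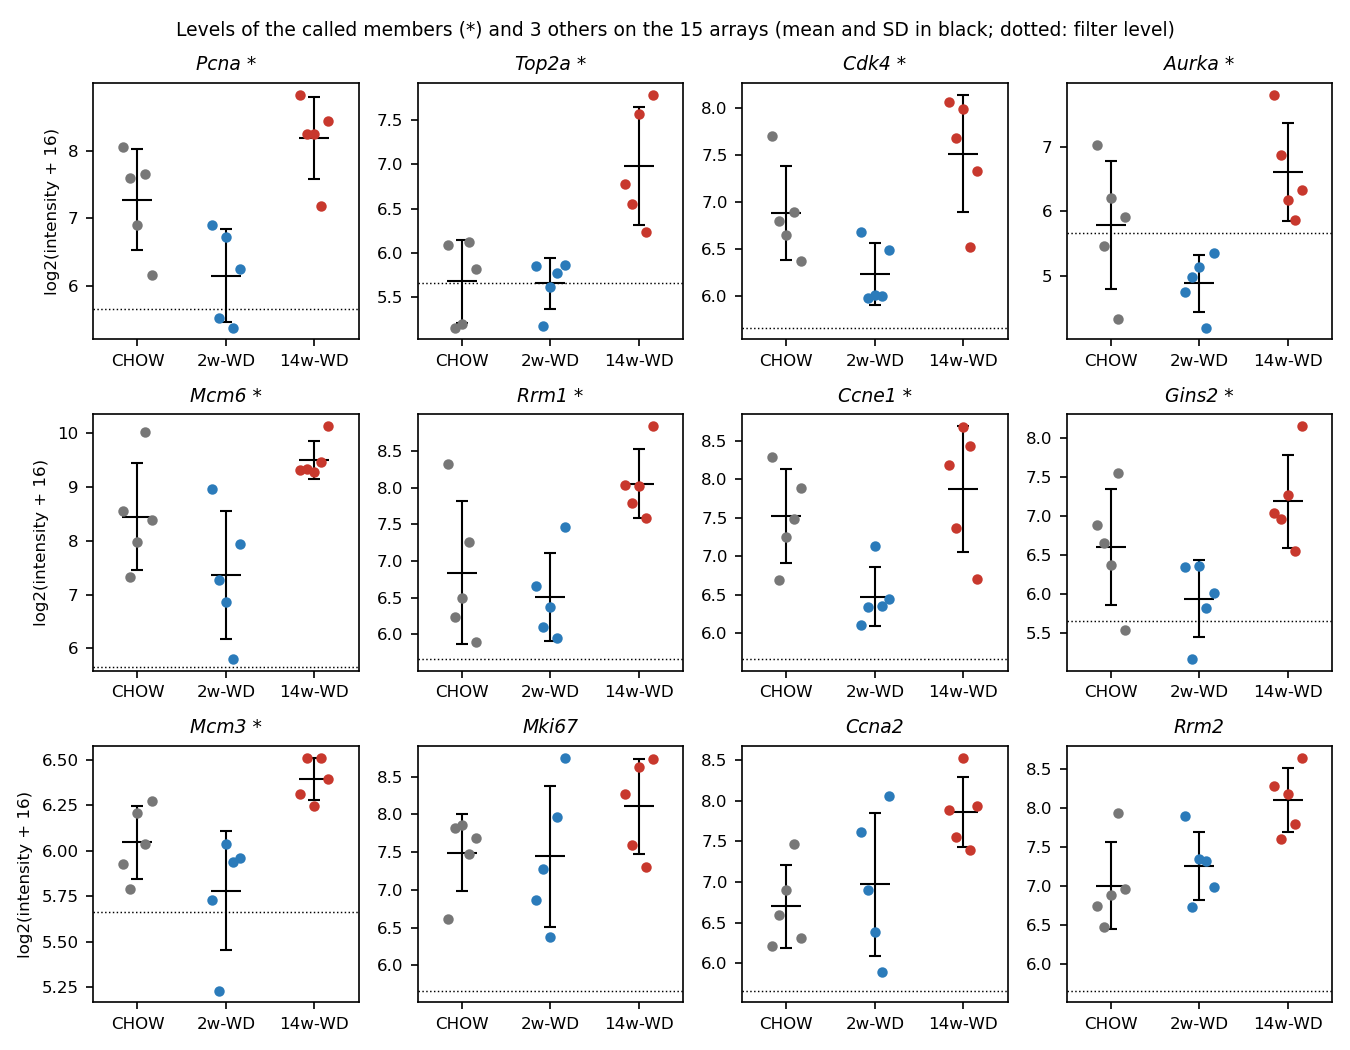
Level on each of the 15 arrays, log2(intensity + 16) on the y axis, by diet group on the x axis, for the 9 members that passed the test in 14w-WD against 2w-WD (starred) and for Mki67, Ccna2 and Rrm2. Black bars are the mean and SD of 5 arrays and the dotted line is the filter level of 5.66; the y axes differ and do not start at 0. All 14w-WD arrays of Top2a lie above all arrays of both other groups.

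Pcna encodes the ring that holds DNA polymerase on its template. In replicate order, Pcna stood at 8.05, 7.60, 6.90, 7.65 and 6.16 in CHOW, at 6.90, 5.52, 6.72, 5.39 and 6.25 in 2w-WD and at 8.82, 8.24, 8.25, 7.18 and 8.43 in 14w-WD. Every 14w-WD array lay above every 2w-WD array, with CHOW spread across both. Pcna rose by 2.03 on the log2 scale (SE 0.40, 4.08-fold, adjusted p = 0.012 in limma) from 2w-WD to 14w-WD. It was called in 28 of 29 alternative settings, all but the brightness covariate (1.19, adjusted p = 0.48).

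Mcm6 encodes a subunit of the helicase that unwinds DNA ahead of the fork. Its levels were 8.55, 7.32, 7.97, 10.01 and 8.38 in CHOW, 8.97, 7.27, 6.86, 5.80 and 7.94 in 2w-WD and 9.32, 9.33, 9.28, 9.45 and 10.12 in 14w-WD. Again 14w-WD and 2w-WD did not overlap, while CHOW replicate 4 reached into the 14w-WD range. The change was 2.13 (SE 0.53, 4.39-fold, adjusted p = 0.023 in limma), the largest of the 39 members in this comparison.

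Rrm1 encodes the large subunit of ribonucleotide reductase, which makes deoxynucleotides. It stood at 8.33, 6.23, 6.49, 7.26 and 5.89 in CHOW, at 6.65, 6.10, 6.38, 5.95 and 7.46 in 2w-WD and at 8.04, 7.80, 8.02, 7.58 and 8.84 in 14w-WD. No 2w-WD array reached the lowest 14w-WD array, and among CHOW arrays only replicate 1 did. Rrm1 rose by 1.54 (SE 0.41, 2.92-fold, adjusted p = 0.029). Rrm2, which encodes the small subunit, stood at 6.75, 6.48, 6.90, 7.94 and 6.97 in CHOW, at 7.91, 6.74, 7.35, 7.33 and 6.99 in 2w-WD and at 8.29, 7.60, 8.18, 7.80 and 8.65 in 14w-WD. The highest 2w-WD array lay above 2 of the 14w-WD arrays. The difference of Rrm2, 0.84 (SE 0.31, adjusted p = 0.080), did not pass.

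Ccne1 encodes cyclin E1, which drives entry into S phase with CDK2. Its levels were 8.29, 6.70, 7.25, 7.48 and 7.89 in CHOW, 6.11, 6.34, 7.13, 6.35 and 6.45 in 2w-WD and 8.18, 7.36, 8.68, 8.43 and 6.70 in 14w-WD. The groups overlapped, since 14w-WD replicate 5 lay below 2w-WD replicate 3. The change was 1.39 (SE 0.38, 2.63-fold, adjusted p = 0.030). The call rests on 1 probe set: a dimmer one, also above the filter, had -0.39 (adjusted p = 0.26 when it represented the gene). Ccne2, for cyclin E2, and Cdk2, for the kinase of both cyclins, had -0.22 and -0.31 and did not pass.

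Gins2 encodes a subunit of the GINS complex, a partner of the MCM helicase. It stood at 6.89, 6.66, 6.38, 7.56 and 5.54 in CHOW, at 6.36, 5.17, 6.36, 5.83 and 6.02 in 2w-WD and at 7.04, 6.96, 7.27, 6.55 and 8.16 in 14w-WD. All 14w-WD arrays were above all 2w-WD arrays. Gins2 rose by 1.25 (SE 0.36, 2.38-fold, adjusted p = 0.036).

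The MCM helicase has 6 subunits, all tested, and their probe sets did not move alike. Mcm3 rose by 0.61 (SE 0.18, 1.53-fold, adjusted p = 0.039). Its levels ran from 5.23 to 6.04 in 2w-WD and from 6.24 to 6.51 in 14w-WD without overlap, and CHOW, at 5.79 to 6.27, overlapped both. Mcm2 (0.99, adjusted p = 0.16), Mcm4 (0.59), Mcm5 (0.39) and Mcm7 (-0.46) did not pass. Mcm5 stood at 7.35, 7.98, 8.04, 9.46 and 7.51 in CHOW, at 8.97, 8.94, 8.68, 7.66 and 7.88 in 2w-WD and at 8.85, 8.24, 9.38, 7.78 and 9.82 in 14w-WD. The 3 groups of Mcm5 overlapped widely (SE 0.46, adjusted p = 0.57 for 14w-WD against 2w-WD).

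Of the other S-phase members, E2f1, the founding E2F factor, had 0.81 (adjusted p = 0.098), with 7.96 to 8.93 in 14w-WD just above 7.22 to 7.91 in 2w-WD. Tyms, for thymidylate synthase, and Cdc45, a helicase cofactor, had -0.17 and -0.20 and did not pass. Cdc6, the helicase loader, Tk1, thymidine kinase, and Uhrf1, which carries DNA methylation through replication, lay below the filter and were not tested. Their group means were 5.29, 5.01 and 4.91 for Cdc6 in CHOW, 2w-WD and 14w-WD, 4.14, 4.14 and 4.26 for Tk1, and 5.32, 5.23 and 5.74 for Uhrf1.

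Among G1 genes, Cdk4, which encodes the kinase partner of D cyclins, stood at 7.70, 6.79, 6.64, 6.89 and 6.37 in CHOW, at 6.68, 5.98, 6.01, 6.00 and 6.49 in 2w-WD and at 8.06, 7.68, 7.98, 6.52 and 7.33 in 14w-WD. Of the 14w-WD arrays 4 lay above all 2w-WD arrays, and replicate 4 lay within their range. Cdk4 rose by 1.28 (SE 0.31, 2.43-fold, adjusted p = 0.021), and its other probe sets had 0.54 and 0.48. Ccnd1, for cyclin D1, stood at 7.86, 7.56, 6.63, 7.93 and 6.89 in CHOW, at 7.91, 7.07, 7.16, 6.55 and 7.05 in 2w-WD and at 7.89, 7.85, 8.28, 7.25 and 7.47 in 14w-WD. These ranges overlapped, and the difference of 0.60 (SE 0.32, adjusted p = 0.20) did not pass, nor did that of Ccnd2, for cyclin D2 (-0.32).

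Of the mitosis members Top2a, which encodes the topoisomerase that untangles sister DNA, stood at 6.09, 5.15, 5.20, 6.12 and 5.82 in CHOW, at 5.85, 5.17, 5.61, 5.77 and 5.86 in 2w-WD and at 6.78, 6.55, 7.57, 6.24 and 7.79 in 14w-WD. Every 14w-WD array was above every array of both other groups, whose own levels lay around the filter level. Top2a rose by 1.33 over 2w-WD (SE 0.30, 2.51-fold, adjusted p = 0.017), and the size of the change depends on the pseudocount because the starting level was dim.

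Aurka encodes Aurora A, a kinase of centrosomes and spindle poles. It stood at 7.02, 5.46, 6.20, 4.33 and 5.91 in CHOW, at 4.74, 4.97, 5.13, 4.19 and 5.35 in 2w-WD and at 7.80, 6.87, 6.16, 5.87 and 6.33 in 14w-WD. All 2w-WD arrays lay below the filter level and below all 14w-WD arrays. The fitted change was 1.73 (SE 0.43, adjusted p = 0.022). Over the CHOW and 2w-WD arrays alone Aurka averaged 5.33, so it passed the filter only through its 14w-WD arrays, and with a pseudocount of 1 it was not tested. Without the genes that passed in this way, 8 of 38 members were called higher (21.1%), against 9.43% of all genes. Aurkb, for Aurora B of the centromere, had 0.34 and did not pass.

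Mki67, whose product Ki-67 marks cycling cells, stood at 6.62, 7.83, 7.86, 7.48 and 7.69 in CHOW, at 6.86, 7.28, 6.38, 7.97 and 8.75 in 2w-WD and at 8.28, 7.60, 8.62, 7.30 and 8.73 in 14w-WD. The highest single value was on 2w-WD replicate 5, and the groups overlapped (difference 0.66, SE 0.42, adjusted p = 0.28). Ccna2, for cyclin A2, stood at 6.22, 6.59, 6.90, 7.47 and 6.32 in CHOW, at 7.62, 6.90, 6.39, 5.89 and 8.06 in 2w-WD and at 7.89, 7.56, 8.53, 7.40 and 7.93 in 14w-WD. The 2w-WD arrays of Ccna2 spread from below to within the 14w-WD range (difference 0.89, SE 0.38, adjusted p = 0.12). Cdk1, the kinase that starts mitosis, stood at 6.61, 5.77, 6.10, 6.29 and 5.65 in CHOW, at 5.37, 5.77, 6.31, 6.05 and 6.11 in 2w-WD and at 6.57, 6.71, 6.96, 5.74 and 6.93 in 14w-WD. Of its 14w-WD arrays 4 lay above all 2w-WD arrays, and the difference was 0.66 (SE 0.26, adjusted p = 0.097).

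Of the 20 mitosis members 6 lay below 0. Tpx2, for the activator of Aurora A on the spindle, had -0.91 (adjusted p = 0.14), Cdca3, which triggers mitotic entry, -0.85 (adjusted p = 0.14), Bub1b, for the checkpoint protein BubR1, -0.58 (adjusted p = 0.16) and Foxm1, the transcription factor of G2 genes, -0.46 (adjusted p = 0.11). None of these 4 passed. For Cdca3 the other probe sets, also above the filter, gave -0.12 and 1.00. Those of Tpx2 gave -0.91 above the filter, and -0.23 and 0.01 below it. Bub1b had -0.45 above it and 0.24 below it. Foxm1 had -0.04 above it, and -0.55 and -0.0056 below it. Bub1b was the 1 tested member whose 14w-WD arrays (9.97 to 10.58) all lay below its 2w-WD arrays (10.66 to 11.12), while 8 tested members had all 14w-WD arrays above: Pcna, Mcm6, Rrm1, Gins2, Mcm3, E2f1, Top2a and Aurka. Over all genes tested 1.57% had no overlap in the lower and 7.06% in the higher direction. The remaining 10 tested mitosis members ran from -0.28 (Nusap1) to 0.79 (Cdca8).

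The 7 mitosis members on the array below the filter were Ccnb2, Bub1, Birc5, Plk1, Kif20a, Ube2c and Ndc80, with means over all arrays from 4.68 (Birc5) to 5.04 (Ccnb2). Ccnb2, for cyclin B2, averaged 4.90, 4.71 and 5.51 in CHOW, 2w-WD and 14w-WD. Ube2c, for the ubiquitin carrier of the anaphase-promoting complex, averaged 4.43 ± 0.07 (SD, n = 5), 4.77 ± 0.61 and 5.22 ± 0.18, and its lowest 14w-WD array (5.00) lay above its highest CHOW array (4.55). These 7 genes were not tested in the fit as reported. Without a filter, where 5.94% of all genes passed, none of the 7 did: in 14w-WD against 2w-WD Ccnb2 had 0.79 (adjusted p = 0.052 in limma) and Ube2c 0.45 (adjusted p = 0.21).

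**Figure D3:**
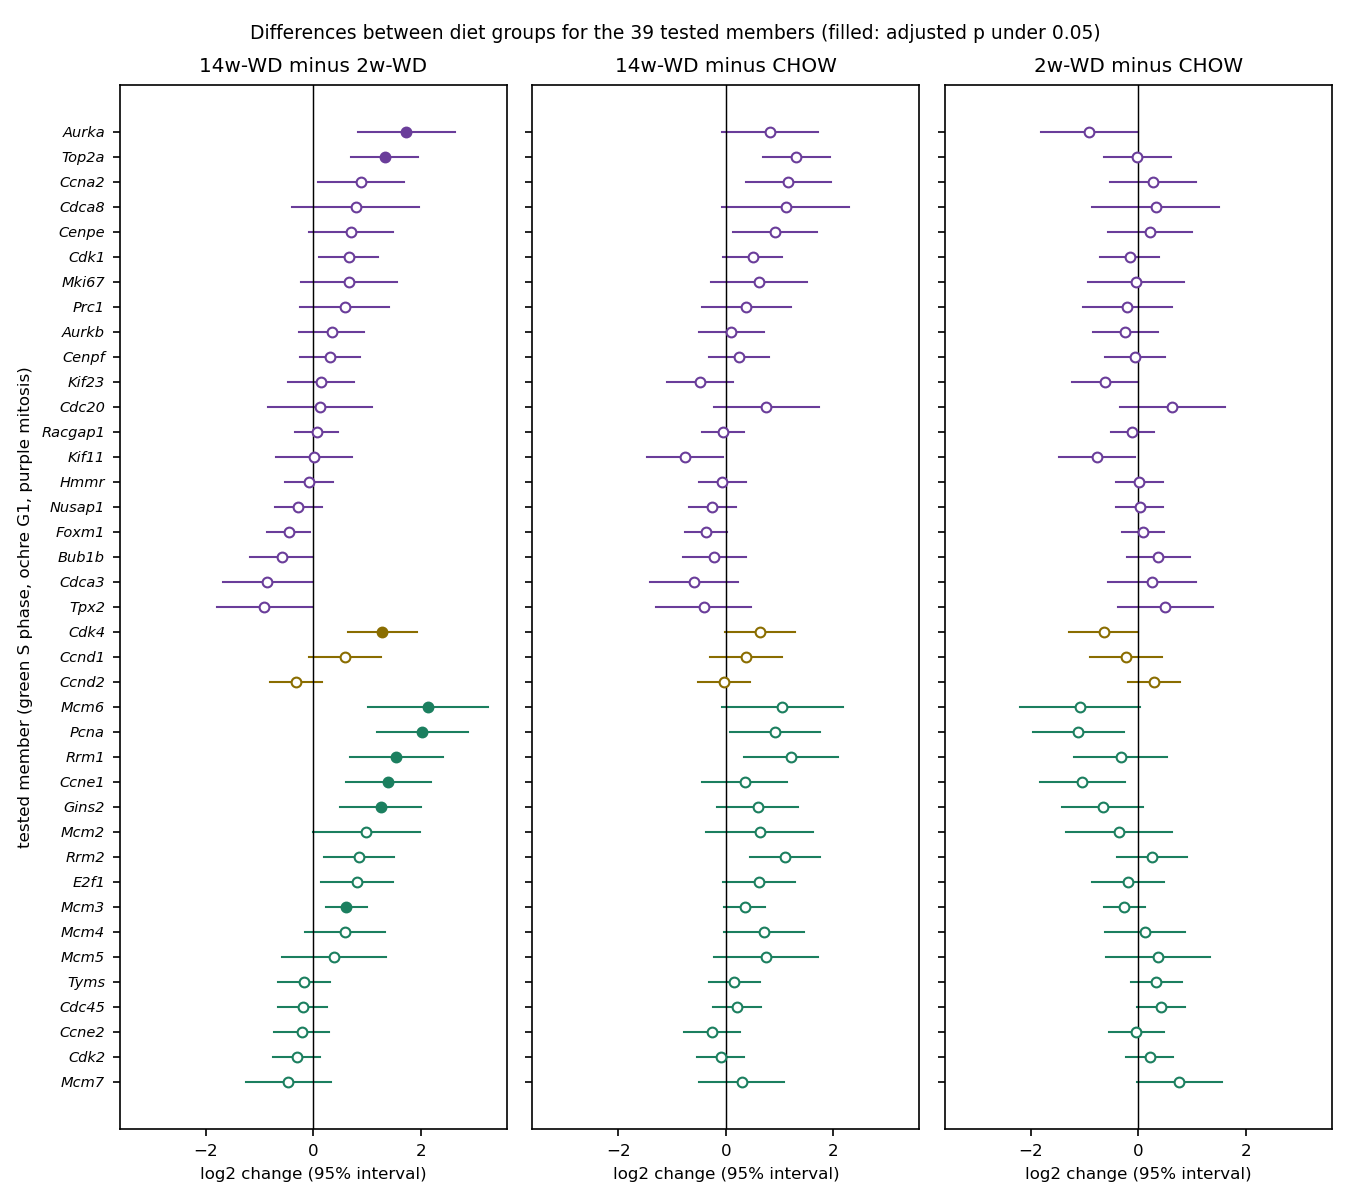
Log2 change with its 95% interval (x axis) for each of the 39 tested members (y axis; green S phase, ochre G1, purple mitosis) in 14w-WD minus 2w-WD, 14w-WD minus CHOW and 2w-WD minus CHOW; filled points passed an adjusted p of 0.05. The 9 filled points are all in the first panel and above 0.

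Long feeding was set against chow in 14w-WD versus CHOW, where limma called 0 members and 1 of all genes tested (0.00839%). At an unadjusted p under 0.05, 6 members were higher and 1 was lower, beside 15.9% of all genes, 1338 of them higher (11.2%) and 555 lower (4.65%). The median log2 difference was 0.60 for S-phase members, with 14 of 16 above 0, 0.37 for G1 members and 0.17 for mitosis members, with 11 of 20 above 0. The median of all genes tested was 0.16, and 65.6% of them lay above 0. With array weights, which count noisier arrays less, the fit called 9 of 39 members, 8 of them higher. It called 2234 of 11925 genes in all, 1676 higher and 558 lower.

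Top2a had the smallest p among members, with a difference of 1.31 (SE 0.30, 2.48-fold, adjusted p = 0.096). It was the 1 tested member whose groups did not overlap, where 3.09% of all genes had every 14w-WD array above every CHOW array and 1.79% every array below. Rrm2 followed with 1.10 (SE 0.31, adjusted p = 0.14), Ccna2 with 1.16 (SE 0.38, adjusted p = 0.18) and Rrm1 with 1.21 (SE 0.41, adjusted p = 0.19). Pcna had 0.91 (SE 0.40, adjusted p = 0.28), and Cenpe, for a kinetochore motor, 0.92 (SE 0.37, adjusted p = 0.25). On the lower side Kif11, for the motor that separates spindle poles, had -0.76 (SE 0.33, adjusted p = 0.28). Without 2w-WD replicate 1, which enters this fit only through the shared spread, 1 of 39 members passed, beside 201 of 11925 genes.

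The G1 genes Cdk4 (0.63, adjusted p = 0.32), Ccnd1 (0.37) and Ccnd2 (-0.03) did not pass. Mcm6 (1.05), Aurka (0.82), Mki67 (0.61), Gins2 (0.59), Cdk1 (0.50), Ccne1 (0.35) and Mcm3 (0.35) lay above 0 and did not pass either.

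Short feeding was set against chow in 2w-WD versus CHOW, where limma called 0 members and 0 genes (0%). At an unadjusted p under 0.05, 0 members were higher and 6 lower (Pcna, Ccne1, Kif11, Aurka, Kif23 and Cdk4), beside 9.76% of all genes, 294 of them higher (2.47%) and 870 lower (7.30%). No tested member had groups without overlap, where 0.294% of all genes did in the higher and 0.83% in the lower direction. The difference lay above 0 for 18 of 39 members and 38.8% of all genes. Pcna differed by -1.12 (SE 0.40, adjusted p = 0.48), Ccne1 by -1.05 (SE 0.38, adjusted p = 0.48) and Mcm6 by -1.08 (SE 0.53, adjusted p = 0.53). Kif11 (-0.78), Kif23, for a motor of cell separation (-0.62), Aurka (-0.91) and Cdk4 (-0.65) each had an adjusted p of 0.51. Rrm1 (-0.33), Top2a (-0.02), Ccnd1 (-0.22) and Ccnd2 (0.29) were nearer to 0. The median difference was -0.11 for S-phase members, -0.22 for G1 members and -0.0018 for mitosis members, against -0.10 for all genes. The comparisons share samples: a low 2w-WD level enters both those that hold 2w-WD. Where 2w-WD lay below CHOW, the difference from 2w-WD to 14w-WD exceeded that from CHOW to 14w-WD. This held for each member called in 14w-WD against 2w-WD, by little for Top2a (1.33 against 1.31) and by more for Pcna (2.03 against 0.91).

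Of the 39 tested members 24 had their highest group mean in 14w-WD, 11 in 2w-WD and 4 in CHOW, and 20 had their lowest in 2w-WD. Over all genes tested 55.6% were highest in 14w-WD and 50.5% lowest in 2w-WD.

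The mean level of the S-phase members differed from array to array. It was 7.45, 7.06, 7.19, 7.70 and 6.91 in CHOW, 7.45, 6.94, 7.20, 6.74 and 7.15 in 2w-WD and 7.89, 7.60, 7.97, 7.55 and 7.98 in 14w-WD. CHOW replicate 4 lay above the 2 lowest 14w-WD arrays, and no 2w-WD array did. In 2w-WD, replicate 1 had the most probe sets above an intensity of 100 (25.7%) and the highest level of 9 of the 16 S-phase members, and replicate 4 had the fewest bright probe sets (18.2%) and the lowest level of 9. The part of brightness in this spread was not tested.

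The mean of the mitosis members was 7.19, 7.35, 7.63, 7.44 and 7.46 in CHOW, 7.25, 7.27, 7.42, 7.18 and 7.84 in 2w-WD and 7.78, 7.53, 7.75, 7.45 and 7.73 in 14w-WD. The highest mean belonged to 2w-WD replicate 5, the array with the highest Mki67, where 11 of 20 mitosis members had their highest 2w-WD level. The bright array 2w-WD replicate 1 held the highest 2w-WD level of 0 of the 20.

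**Figure D4:**
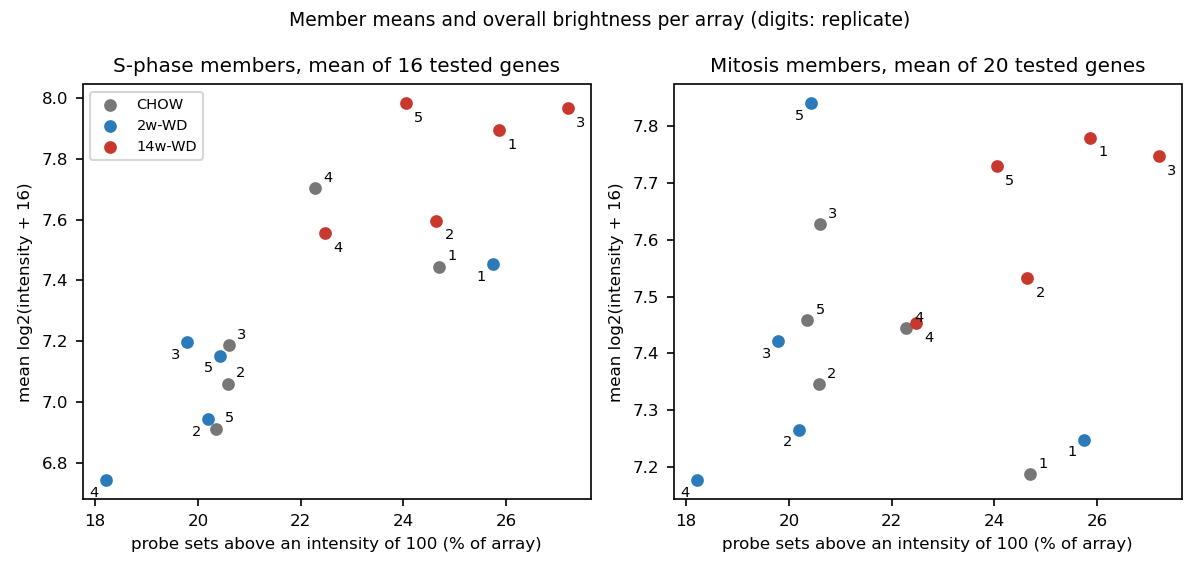
Mean level of the 16 S-phase members (left) and the 20 mitosis members (right) on each array, log2(intensity + 16) on the y axis, against the percent of probe sets above an intensity of 100 on the x axis; colours are diet groups and digits are replicates. Brighter arrays tend to lie higher on the left, and on the right 2w-WD replicate 5 lies highest at 7.84.

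Of the members with more than 1 probe set, 35 were tested, and probe sets of 1 gene often disagreed. In 7 members the brightest probe set lay more than 4 log2 above the dimmest. For Ccna2 the second probe set above the filter gave 1.21 in 14w-WD against 2w-WD beside the 0.89 above, and the mean of its probe sets passed (adjusted p = 0.040). For Mcm4 the second one gave 2.07 beside 0.59, and for Mcm7 the others ran from -0.08 to 0.94 beside -0.46. For Rrm1 the second probe set above the filter gave -0.20 beside 1.54. For Mcm6 the 2 others, both below the filter, gave -0.41 and 0.41, and for Top2a they gave 0.06 and 0.08. Other probe sets below the filter gave -0.24 for Gins2, -0.01 for Aurka and from -0.13 to 0.35 for Mcm3. Pcna had 1 probe set. With the mean of all probe sets of a gene 3 of 28 tested members were called (10.7%), Pcna, Mcm6 and Ccna2, where 14.9% of all genes were. Probe sets that may also bind related transcripts (named with _x_at) represented 9 tested members, and without them 7 of 35 tested members were called (20%), where 13% of all genes were. Mcm6 then lay below the filter.

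**Figure D5:**
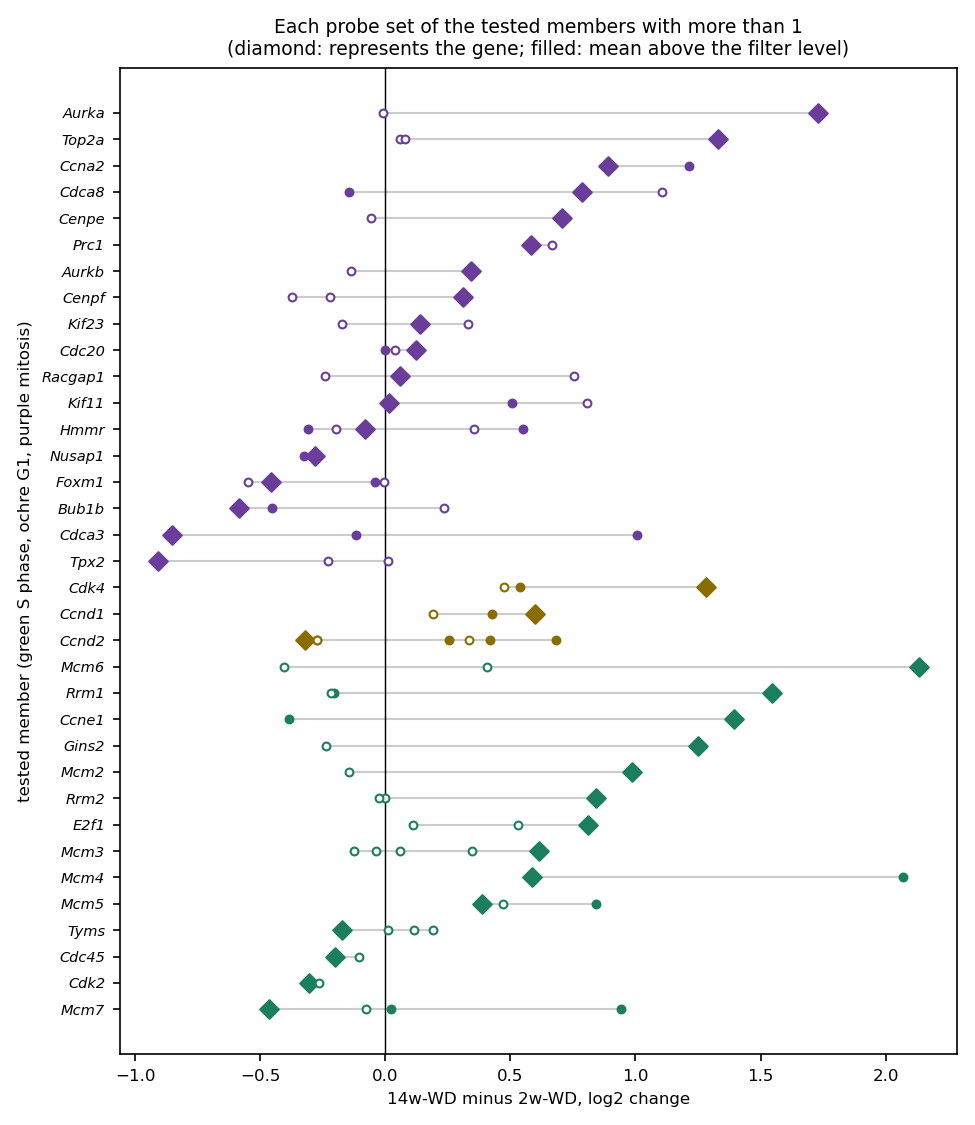
Log2 change in 14w-WD minus 2w-WD (x axis) of every probe set of the 35 tested members with more than 1 (y axis). Diamonds represent the gene, circles are its other probe sets, and filled symbols have a mean above the filter level of 5.66; for Rrm1 and Ccne1 a second filled symbol lies below 0, at -0.20 and -0.39.

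Other genes of the pathway were taken from lists of related genes. Their counts stand beside those of all genes tested, of which 10.1% rose and 1.15% fell in 14w-WD against 2w-WD, 25.9% were higher and 6.13% lower at an unadjusted p under 0.05, and the median change was 0.23. Of 43 tested replication genes outside the members 7 rose (16.3%) and 0 fell, with a median change of 0.70, and at an unadjusted p under 0.05 there were 22 higher (51.2%) and 2 lower. Gmnn, for geminin, which keeps origins from firing again, rose by 2.07 (adjusted p = 0.012) from 5.62 ± 0.78 (SD, n = 5) to 7.69 ± 0.62. Rfc5, of the loader of the PCNA ring, rose by 1.51 (adjusted p = 0.015), Nasp, a histone chaperone, by 1.56 (adjusted p = 0.019) and Dbf4, the activator of the origin kinase CDC7, by 1.21 (adjusted p = 0.032). Cdt1, which loads the helicase, had 0.74 (adjusted p = 0.11). The others that rose were Pole2 and Pold3, of DNA polymerases, and Chek1, the kinase of the replication checkpoint.

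Of 39 further mitosis genes 3 rose (7.69%, below the share of all genes) and 0 fell, with a median of 0.17 and 8 higher (20.5%) and 2 lower at an unadjusted p under 0.05. They were Cks2, for a CDK-binding protein (2.11, adjusted p = 0.026), Shcbp1 (1.13, adjusted p = 0.026) and Espl1, for separase, which cuts the tie between sister chromatids (1.61, adjusted p = 0.037). Mad2l1, of the spindle checkpoint, had 0.26 (adjusted p = 0.66).

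Of 29 genes of inhibitors and G1 control 5 rose (17.2%) and 0 fell, with a median of 0.57 and 9 higher (31%) and 1 lower at an unadjusted p under 0.05. Brakes of the cycle were among them: Rbl1, for the retinoblastoma relative p107 (1.54, adjusted p = 0.016), Cdkn2b, for the CDK4 inhibitor p15 (1.51, adjusted p = 0.021), and Ccng2, for cyclin G2 (1.21, adjusted p = 0.034), beside the inhibitor gene Cdkn1c and Cdk6, the sister kinase of CDK4 (1.13, adjusted p = 0.040). Cdkn1a, for p21, had 0.24 (adjusted p = 0.39) and Cdkn1b, for p27, -0.11 (adjusted p = 0.72).

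Of 11 growth signal genes of macrophages 0 rose and 1 fell, Kit, a receptor of growth factors (-0.77, adjusted p = 0.045), with 2 higher and 1 lower at an unadjusted p under 0.05. Csf1r had -0.04 (adjusted p = 0.78) and Csf1, its ligand, 0.30 (adjusted p = 0.50). In the other comparisons limma called 0 genes of these 4 lists. At an unadjusted p under 0.05 in 14w-WD versus CHOW, 11 of 43 other replication genes were higher (25.6%) and 1 lower. The other mitosis genes had 7 of 39 higher (17.9%) and 1 lower. Genes of inhibitors and G1 control had 5 of 29 higher (17.2%) and 1 lower, and growth signal genes 0 of 11 and 1. Of all genes 11.2% were higher and 4.65% lower there. In 2w-WD versus CHOW the other replication genes had 0 higher and 3 lower, and the other mitosis genes 0 and 0. Genes of inhibitors and G1 control had 2 higher and 4 lower there, and growth signal genes 0 and 1. Of all genes 2.47% were higher and 7.30% lower in that comparison.

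Markers of other cell types were counted in the same comparison, beside the 11.2% of all genes that passed. Of 10 fibroblast markers 3 rose in 14w-WD against 2w-WD, Col1a1 (1.05), Pdgfra (1.95) and Fbln1 (1.64), and 10 of 10 lay above 0. Their summed intensity ran from 34511 to 49112 in CHOW, from 31380 to 42217 in 2w-WD and from 39483 to 53461 in 14w-WD. Of 7 tested smooth muscle markers Mylk rose (2.09), with summed intensities of 9332 to 16245, 9619 to 11033 and 5728 to 12983. Of 15 tested macrophage markers Aif1 (1.82) and Tyrobp (0.38) rose, with sums of 107076 to 143255, 100928 to 123422 and 113797 to 133256. At an unadjusted p under 0.05 in limma, 8 of 15 macrophage markers were higher (53.3%) and 0 lower. At that threshold 6 of 10 fibroblast markers (60%) and 2 of 7 smooth muscle markers (28.6%) were higher and 0 lower. Of all genes 25.9% were higher and 6.13% lower. The heart muscle markers had 0 of 15 called by limma, 0 at an unadjusted p under 0.05 and a median of -0.45. Of 27 tested markers of endothelium, T and NK cells, B cells, dendritic cells, neutrophils and erythroid cells 0 were called, with 2 higher and 1 lower at an unadjusted p under 0.05. No fibroblast marker lay below the filter, and among smooth muscle markers Cnn1, Smtn and Actg2 did. The part of these cells in the differences of cell cycle genes was not tested. With the mean of the heart muscle markers as a covariate 8 of 39 members were called (20.5%), where 11.6% of all genes were. No such fit was made with the fibroblast or smooth muscle markers.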

How the data were processed

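Foam cell RNA of 15 samples, 3 groups of 5, was measured on Affymetrix arrays. The deposited table holds 1 linear intensity for each of 45037 probe sets per array; the summarisation and normalization behind the authors' values are not given in the sources used here. Per the platform annotation 34945 probe sets had 1 gene, 932 several and 9160 were unnamed here. Intensities were turned into log2(intensity + 16), so fold changes are on that scale and understate those of dim genes. The probe set with the highest mean represented a gene, and genes with a mean below log2 5.66 were left out.

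All 15 arrays were fitted in limma 3.58.1 (lmFit, eBayes with an intensity trend; R 4.3.3) with 3 two-sided contrasts, and p-values were Benjamini-Hochberg adjusted over 11925 genes with a threshold of 0.05. Printed SEs are those of limma. On simulated data of this size for 14w-WD versus 2w-WD, 27 of 100 genes changed by a log2 of 1 and 85 of 100 changed by a log2 of 2 were recovered, with 4 false calls.

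The members, the gene lists and the motifs were chosen with earlier results of these data known. Named in full were members past the threshold in any comparison, at most 8 per comparison by smallest p, and Mki67, Top2a, Pcna, Ccna2, Cdk1, Rrm2, Mcm5 and Ccnd1 whatever their values. Named by change were other members past the threshold and, per comparison and phase, the 3 with the smallest p. Named by level were members below the filter; from each further list up to 4 genes past the threshold by smallest p, and always Csf1r, Csf1, Cdkn1a, Cdkn1b, Gmnn, Cdt1 and Mad2l1. Other names, among them Mcm2, E2f1, Pole2, Cdk2, Tpx2 and the markers, were chosen after their values were seen. Alternatives changed the pseudocount, filter, scaling, probe set choice, intensity trend, array weights, groups fitted, a brightness covariate, the replicate block and single arrays. The heart muscle covariate, the fit without _x_at probe sets and the count without genes that pass the filter only through 14w-WD were added after seeing the data.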

Additional observations from a re-analysis of the deposited data

Results flagged for a closer look

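Among 51 sets of 5 values, made of the members named in full and the phase means in each group, 1 held a sample far from the others. Mcm6 in 14w-WD stood at 10.12 on replicate 5, while the nearest other array had 9.45 and the lowest 9.28, a gap of 0.794 of the whole range. Chance marks about 1 in 20 such sets.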

How the results depend on the processing

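In 14w-WD versus 2w-WD the count of genes called, 1338 as reported, was 798 with a mean intensity of at least 100, 3839 with array weights and 0 with the brightness covariate, and 164 (without 14w-WD replicate 1) to 3536 (without 2w-WD replicate 1) with 1 array left out. The 9 members called were 23.1% of 39, beside 11.2% of all genes. They became 5 of 22 (22.7%) with a mean intensity of at least 100, beside 12.7% of all genes. Under quantile normalization they were 5 of 39 (12.8%, beside 7.78%), and with the mean of all probe sets 3 of 28 (10.7%, beside 14.9%). With the brightness covariate 0 members and 0 genes were called. With 1 array left out the count ran from 1 of 39 to 13 of 39. The 13 (33.3%) came without 2w-WD replicate 1, where 29.7% of all genes were called. The S-phase median of 0.71 became 0.34 under quantile normalization and 0.27 with the brightness covariate, and the mitosis median of 0.22 became 0.045 and 0.28 there, 0.35 with a mean intensity of at least 100 and 0.15 to 0.41 with 1 array left out. Ccne1 turned from 1.39 to -0.39 without _x_at probe sets. In 14w-WD versus CHOW the 1 gene called became 7 with a pseudocount of 64, 17 without a filter, 122 with only the 2 groups fitted, 2234 with array weights, 0 with a mean intensity of at least 100, quantile normalization, the mean of all probe sets or the brightness covariate, and 0 to 201 with 1 array left out. Members called were 9 of 39 with array weights, beside 2234 of 11925 genes, and 0 to 1 of 39 with 1 array left out. The S-phase median of 0.60 became 0.27 under quantile normalization and 0.25 with the brightness covariate, and the mitosis median of 0.17 became 0.50 with a mean intensity of at least 100 and -0.060 under quantile normalization. In 2w-WD versus CHOW the mitosis median of -0.0018 became 0.30 with a mean intensity of at least 100, and every alternative run called 0 genes. The causes of these shifts were not tested. Dim members, near the level of 5.66, have changes whose size depends on the pseudocount.

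Same-numbered samples did not meet the rule that every pair correlate above 0.1 in its deviations: 7 of 15 such pairs did (median 0.087), beside 14 of 60 pairs of different numbers (median -0.024), and 6 of 15 arrays correlated best with their own number. With the replicate block 2122 genes (17.8%) and 9 of 39 members (23.1%) were called in 14w-WD versus 2w-WD. That fit called 20 genes and 0 members in 14w-WD versus CHOW, and 0 genes in 2w-WD versus CHOW.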
